A study of Mus musculus with 6 samples.

Results

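Mitochondrial fatty acid oxidation was followed here through 10 enzyme genes, Acsl1, Cpt1a, Cpt2, Acadvl, Acadl, Acadm, Hadha, Hadhb, Acaa2 and Etfdh, taken by gene name from the 41721 genes counted by RNA sequencing. All 10 were found under these names and all 10 passed the filter on low counts, which left 14085 genes to be tested. The cells were MASMCs, smooth muscle cells isolated from the mouse abdominal aorta and grown in culture, and every culture had been treated with Ang II (angiotensin II) at 1 μM for 48 h. For experiments in culture the study's methods also give 48 h of serum starvation. The comparison was between 3 libraries of Pdk4fl/fl cells and 3 of Pdk4SMKO cells. Pdk4fl/fl mice carry loxP sites around exons 4 to 6 of Pdk4, and Pdk4SMKO mice carry in addition a tamoxifen-inducible Cre driven by the Myh11 promoter. That Cre is Y-linked, so the mice were males. They were made in C57BL/6J zygotes, both genotypes received tamoxifen on 5 days, and cells were taken at 10 weeks of age and used at passages 4 to 8. Deletion was therefore limited to cells in which Myh11-Cre had been active before culture. The study calls the libraries of a genotype biological replicates, and the labels do not say whether they came from separate mice, so the p-values measure the spread between these cultures.

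Long-chain fatty acids are activated to acyl-CoA, carried across the mitochondrial membranes as acylcarnitines, and shortened in the matrix by a repeated cycle of dehydrogenation, hydration, dehydrogenation and thiolysis that ends in acetyl-CoA. PDK4 is a kinase that inactivates the pyruvate dehydrogenase complex, which supplies the other main stream of acetyl-CoA from glucose. Transcription of both Pdk4 and many fatty acid oxidation genes is known to be driven by the PPAR nuclear receptors, and smooth muscle cells of the vessel wall can use both fuels.

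Pdk4, the targeted gene (MGP_C57BL6NJ_G0030873), checked the labels. Its level was 38.0, 35.1 and 31.9 CPM in Pdk4fl/fl libraries 1 to 3 and 4.83, 9.06 and 6.92 CPM in Pdk4SMKO libraries 1 to 3, where CPM is the count of a gene divided by its library total after scaling with edgeR's TMM factors, times 1000000. It was 5.04-fold lower in Pdk4SMKO cells (log2 fold change -2.34, adjusted p = 4.7e-06, edgeR's quasi-likelihood test). Pdk4 transcript was thus low but present in all 3 Pdk4SMKO libraries.

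Libraries held 16526044 to 22481670 counted reads, and 3 counts, taken as the floor of detection, corresponded to 0.132 to 0.227 CPM. The genotypes differed in most genes: log2 CPM correlated at r of 0.981 or more within a genotype and 0.748 or less between genotypes, and 59.3% of the tested genes passed both an adjusted p of 0.05 and a 2-fold change, 32.8% higher and 26.5% lower in Pdk4SMKO cells. TMM factors were 0.784 to 0.838 in Pdk4fl/fl and 1.21 to 1.26 in Pdk4SMKO libraries, and the median log2 fold change over all genes was 0.12, against 0.72 when libraries were scaled by their size alone. Of 8 markers of smooth muscle, 4 were higher in Pdk4SMKO cells, Acta2 (233 against 701 CPM) and, from low values, Lmod1 (1.93 against 9.81 CPM), Myh11 (0.613 against 2.39 CPM) and Des (0.129 against 0.967 CPM). Des had 5 counts or fewer in every Pdk4fl/fl library and could be called in 1 direction alone. Lower were 3, Tagln (253 against 52.7 CPM), Smtn (280 against 57.5 CPM) and Cnn1 (19.5 against 6.88 CPM). Myocd was lower by the adjusted p alone (log2 fold change -0.58, adjusted p = 0.044, edgeR's quasi-likelihood test). Markers of other cells moved with the genotype: the summed level of 8 mesothelial markers was 74.2 to 99.99 CPM in Pdk4fl/fl and 723 to 1325 CPM in Pdk4SMKO libraries, with all 7 tested genes higher. Of these genes, Upk1b, Krt18, Wt1 and Lrrn4 had 5 counts or fewer in every Pdk4fl/fl library and could be called in 1 direction alone. The sum of 6 fibroblast markers was 141 to 173 against 1320 to 2774 CPM, carried mostly by Col14a1 (25.2 against 1740 CPM) and Dcn (92.7 against 434 CPM), with 3 genes higher, Dpt lower and Pdgfra and Pi16 not called. The 8 macrophage markers summed to 21.4 to 38.0 against 9.71 to 30.5 CPM, nearly all of it Cd68 in Pdk4fl/fl cells. Cd68 was lower in Pdk4SMKO cells (31.2 against 4.29 CPM), and the other 5 of the 6 tested were higher. Those 5, Adgre1, C1qa, C1qb, Tyrobp and Csf1r, had 0 to 4 counts in the Pdk4fl/fl libraries and could be called in 1 direction alone. The 7 endothelial markers summed to 17.4 to 26.3 against 2.94 to 5.62 CPM, with Cdh5 and Tie1 at 3 counts or fewer in every library. The lists for cells rich in fatty acid oxidation genes stayed low, with the 8 adipocyte markers at 11.1 to 20.7 against 16.2 to 25.1 CPM, nearly all of it Fabp4, and the 6 cardiac muscle markers at 6.09 to 7.47 against 0.896 to 3.16 CPM. In adipocytes Plin1, Lep, Retn and Cfd, and in heart Myh6, Myl7, Actc1, Nppa and Ryr2, were at 3 counts or fewer everywhere. These shifts accompany each result given for the enzyme genes, and their part in those results was not tested. In bulk RNA, fewer cells of a type and less RNA per cell cannot be told apart.

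Sequence upstream of the start site is shown for Cpt2 and Acadm, which changed most in abundance, and for the 85 bases between the divergent genes Hadha and Hadhb, which did not pass the test. The sequences are those of RefSeq on GRCm38.p6, cut to bases outside exons of the GENCODE annotation, at chr4:107923611-107923839 (minus strand) for Cpt2, chr3:153944644-153944893 (minus strand) for Acadm and chr5:30155163-30155247 (plus strand) for the Hadha and Hadhb interval. Capitals mark the GC box GGGCGG, the kind of site bound by Sp1, and the nuclear receptor half-site AGGTCA, each on either strand, so that the half-site of Acadm reads TGACCT.
Cpt2: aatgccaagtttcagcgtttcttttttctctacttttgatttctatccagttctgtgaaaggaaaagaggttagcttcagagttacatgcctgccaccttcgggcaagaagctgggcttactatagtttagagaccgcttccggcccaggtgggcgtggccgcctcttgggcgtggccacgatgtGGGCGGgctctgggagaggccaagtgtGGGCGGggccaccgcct
Acadm: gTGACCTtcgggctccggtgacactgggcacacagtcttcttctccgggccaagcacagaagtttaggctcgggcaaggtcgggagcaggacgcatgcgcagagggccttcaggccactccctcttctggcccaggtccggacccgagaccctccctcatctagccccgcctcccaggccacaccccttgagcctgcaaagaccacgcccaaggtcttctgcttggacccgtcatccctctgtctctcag
Hadha-Hadhb: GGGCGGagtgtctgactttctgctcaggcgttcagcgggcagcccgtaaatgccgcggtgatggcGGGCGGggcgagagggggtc
The 85 bases lie between the start sites of GENCODE, whereas RefSeq places both start sites inside these genes and farther apart. Promoter windows running from 250 bases before to 50 bases after a RefSeq start site were matched for 9 of the 10 genes. A GC box was present in 7 of the 9 (Cpt1a, Cpt2, Acadl, Hadha, Hadhb, Acsl1 and Etfdh), against 35.7% of all 32851 windows, and its presence did not separate the genes that passed the test from those that did not. The half-site AGGTCA was found for Cpt1a, Acadm and Acadvl and in 16.3% of all windows. A pair of half-sites in the same orientation with 1 base between them, the arrangement bound by PPAR and RXR, was in none of the 9 and in 0.0396% of all windows, and the estrogen-related receptor element TCAAGGTCA was likewise in none of the 9, with 0.423% of all windows holding it. The NRF1 core, GCGCA followed directly by its reverse complement, was found for Etfdh, with 0.971% of all windows holding it. These motifs overlap in part, since the estrogen-related receptor element and the direct repeat both contain the half-site.

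Of the 10 enzyme genes, 6 were higher in Pdk4SMKO cells by both limits (adjusted p below 0.05 and 2-fold), namely Cpt2, Acadm, Acaa2, Acsl1, Cpt1a and Acadl, and 0 were lower. Among all tested genes 32.8% were called higher and 26.5% lower, 59.3% in all. By the adjusted p alone 7 were higher and 1, Etfdh, was lower, beside 41.9% and 37.1% of all genes (79.0% in either direction), and Hadha and Hadhb passed in neither direction. Scaling by library size alone, which moved the median of all genes to 0.72, put all 10 higher by the adjusted p, Etfdh, Hadha and Hadhb included. DESeq2 called 5 of the 10 higher and 0 lower at 2-fold, with Acadl under the limit at a log2 fold change of 0.99. Over the 10 genes the log2 fold change had a median of 1.02, against 0.12 over all tested genes. All 3 Pdk4SMKO libraries lay above all 3 Pdk4fl/fl libraries for 7 genes and below them for Etfdh, while the libraries overlapped for Hadhb and Acsl1, and over all tested genes 43.5% lay wholly above and 38.3% wholly below, 81.8% together. Where the libraries did not overlap, the exact two-sided permutation test gave p = 0.1, the smallest that 3 libraries against 3 allow. Without Pdk4fl/fl replicate 3 the number called at 2-fold fell from 6 to 3, since Cpt1a and Acadl came under 2-fold and Acsl1 lost its adjusted p. By the adjusted p alone, 5 in place of 7 were then higher.

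**Figure D1:**
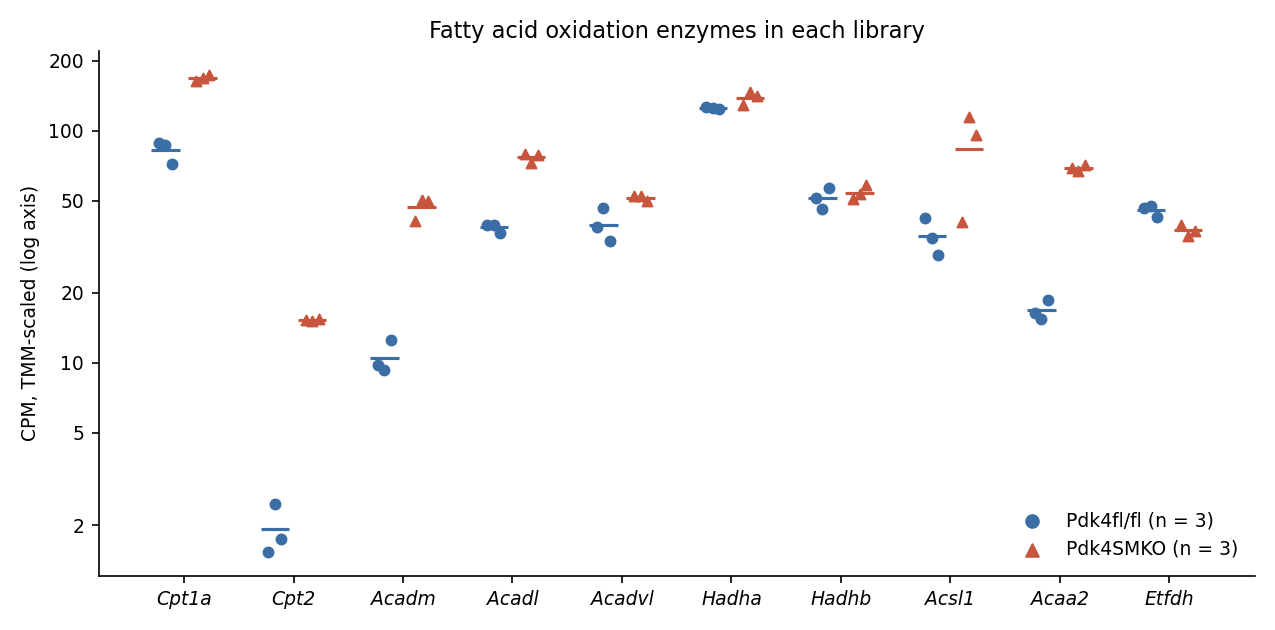
Level of each of the 10 enzyme genes in every library, in TMM-scaled CPM on a log axis. Circles are Pdk4fl/fl libraries, triangles Pdk4SMKO libraries, and bars the mean of 3. The groups lie farthest apart for Cpt2, Acadm and Acaa2, overlap for Hadhb, and overlap for Acsl1 through 1 Pdk4SMKO library at 40.3 CPM.

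Acsl1 (MGP_C57BL6NJ_G0034083, chromosome 8 from 47299711 to 47371100) encodes a long-chain acyl-CoA synthetase, which activates fatty acids by joining them to CoA. It was at 42.2, 34.5 and 29.1 CPM in Pdk4fl/fl libraries 1 to 3 and at 40.3, 115 and 95.7 CPM in Pdk4SMKO libraries 1 to 3. Pdk4SMKO library 1 lay within the Pdk4fl/fl range while the other 2 lay far above it, so the spread within Pdk4SMKO cells was the widest of the 10 genes. In edgeR's quasi-likelihood test the difference was 1.24 ± 0.32 on the log2 scale (standard error) with an adjusted p of 0.005, and the exact permutation test gave p = 0.2. With single libraries left out it ran from 0.96 without Pdk4SMKO replicate 2 to 1.59 without Pdk4SMKO replicate 1. Pdk4SMKO library 1 also held the highest sum of mesothelial markers (1325 CPM, beside 723 and 829) and the lowest sum of fibroblast markers (1320 CPM, beside 2774 and 2561). Whether that composition bears on Acsl1 was not tested.

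Both membrane-bound carnitine palmitoyltransferases were higher in Pdk4SMKO cells, the inner-membrane enzyme by more. Cpt1a (MGP_C57BL6NJ_G0025036, chromosome 19 from 69461 to 131183) encodes the outer-membrane enzyme that forms acylcarnitine, the step inhibited by malonyl-CoA. It was at 88.5, 86.8 and 71.7 CPM in Pdk4fl/fl and at 163, 169 and 175 CPM in Pdk4SMKO libraries, with no overlap. This 2.05-fold difference (log2 fold change 1.04 ± 0.12, standard error, with an adjusted p of 2.3e-05 in edgeR's quasi-likelihood test) was just past the 2-fold limit, and it came to 0.93 without Pdk4fl/fl replicate 3. Cpt2 (MGP_C57BL6NJ_G0028967, chromosome 4 from 112500516 to 112524972) encodes the inner-membrane enzyme that returns the acyl group to CoA in the matrix. Its Pdk4fl/fl libraries held 1.53, 2.47 and 1.74 CPM, from 23, 45 and 23 reads, and its Pdk4SMKO libraries 15.3, 15.2 and 15.4 CPM, from 349, 305 and 314 reads. Cpt2 thus showed the largest change of the 10 genes, 7.99-fold (log2 fold change 2.98, 95% interval 2.48 to 3.48, adjusted p = 9.7e-07, edgeR's quasi-likelihood test), and its 3 Pdk4SMKO libraries were almost equal.

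The acyl-CoA dehydrogenases, which open each cycle and differ in the chain length they accept, did not change to the same extent. Acadvl (MGP_C57BL6NJ_G0018969, chromosome 11 from 72626748 to 72631976), for very long chains, was at 38.4, 46.5 and 33.4 CPM in Pdk4fl/fl and 52.2, 52.6 and 49.6 CPM in Pdk4SMKO libraries. The groups were separate but close, a 1.30-fold difference that passed the adjusted p and not the 2-fold limit (log2 fold change 0.38 ± 0.14, standard error, with an adjusted p of 0.031 in edgeR's quasi-likelihood test). The adjusted p of Acadvl passed without Pdk4fl/fl replicate 2 but lay between 0.051 and 0.102 with any other library left out. Its span shares 2119 bases with Dvl2 on the opposite strand, a gene 24.9-fold lower in Pdk4SMKO cells (962 against 38.6 CPM), and use of the read strand in counting is not given in the sources used here. Acadl (MGP_C57BL6NJ_G0016507, chromosome 1 from 69680486 to 69711361), for long chains, was at 39.5, 39.3 and 36.2 CPM against 79.3, 72.9 and 78.3 CPM. Every Pdk4SMKO library was therefore near 2-fold the Pdk4fl/fl level, and the log2 fold change of 1.00 (95% interval 0.74 to 1.26, adjusted p = 2.1e-05, edgeR's quasi-likelihood test) lay on the limit itself. Acadm (MGP_C57BL6NJ_G0028414, chromosome 3 from 163034862 to 163058266), for medium chains, was at 9.80, 9.33 and 12.5 CPM against 40.8, 50.4 and 49.6 CPM. It was 4.45-fold higher, the largest change among the 3 dehydrogenases (log2 fold change 2.16 ± 0.17, standard error, with an adjusted p of 1.1e-06 in edgeR's quasi-likelihood test).

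Hadha and Hadhb encode the α and β subunits of the mitochondrial trifunctional protein, which carries out the hydration, second dehydrogenation and thiolysis of long-chain acyl-CoA. Hadha (MGP_C57BL6NJ_G0029814, chromosome 5 from 29818605 to 29857005) was at 126, 125 and 124 CPM in Pdk4fl/fl and 129, 146 and 141 CPM in Pdk4SMKO libraries. Its 3 Pdk4SMKO libraries were above the others, and the log2 fold change was 0.15 (95% interval -0.09 to 0.39, adjusted p = 0.22, edgeR's quasi-likelihood test). Hadhb (MGP_C57BL6NJ_G0029815, chromosome 5 from 29857091 to 29889562) was at 51.3, 46.2 and 56.7 CPM against 50.7, 53.4 and 58.2 CPM. Here the libraries overlapped, with a log2 fold change of 0.07 (95% interval -0.21 to 0.36, adjusted p = 0.61, edgeR's quasi-likelihood test). Both intervals end under a 2-fold change. With library size alone the log2 fold changes of Hadha and Hadhb were 0.76 and 0.68, which is 0.03 and -0.04 from the median of all genes. In the table, too, 85 bases separate the pair on opposite strands. At its other end Hadha shares 75 bases with Gareml, a gene on the opposite strand at 109 against 1.13 CPM.

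Acaa2 (MGP_C57BL6NJ_G0024972, chromosome 18) encodes the matrix 3-ketoacyl-CoA thiolase for medium and shorter chains. It was at 16.5, 15.5 and 18.6 CPM in Pdk4fl/fl and 68.8, 66.9 and 71.5 CPM in Pdk4SMKO libraries. The 4.10-fold difference (log2 fold change 2.04 ± 0.13, standard error, with an adjusted p of 3.0e-07 in edgeR's quasi-likelihood test) was about the size of that of Acadm, and the libraries of each genotype were tight. Etfdh (MGP_C57BL6NJ_G0027733, chromosome 3 from 82327351 to 82355889) encodes the inner-membrane dehydrogenase that hands electrons from the acyl-CoA dehydrogenases to ubiquinone. It was at 46.7, 47.5 and 42.3 CPM against 39.4, 35.2 and 36.9 CPM. All Pdk4SMKO libraries lay below the Pdk4fl/fl libraries, and the log2 fold change of -0.29 (standard error 0.12) was at the edge of the test (adjusted p = 0.049, edgeR's quasi-likelihood test). Scaled by library size alone the direction of Etfdh turned to 0.32 (adjusted p = 0.046), while its distance from the median of all genes was -0.41 under both scalings. The span of Etfdh shares 422 bases with 4930579G24Rik on the opposite strand (1.63 against 3.22 CPM). For Cpt2, Acadm and Acaa2 that distance was 2.86, 2.04 and 1.92 on the log2 scale, for Acsl1, Cpt1a and Acadl 1.13, 0.92 and 0.89, and for Acadvl, Hadha and Hadhb 0.26, 0.03 and -0.04.

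**Figure D2:**
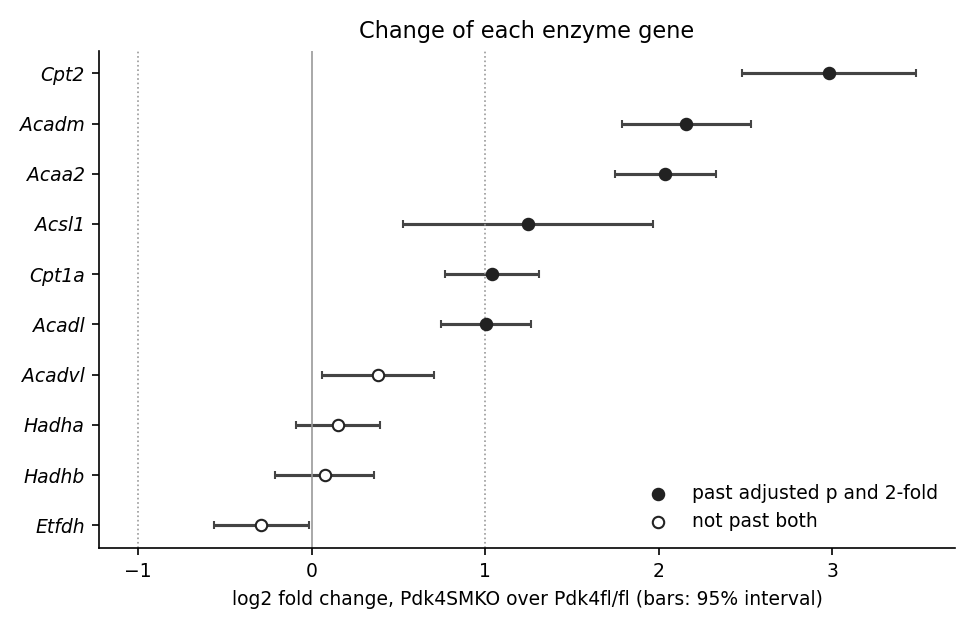
Log2 fold change of each enzyme gene, Pdk4SMKO over Pdk4fl/fl, with its 95% interval from the edgeR fit, in order of size. Filled points passed the adjusted p and the 2-fold limit marked by dotted lines. Cpt2, Acadm and Acaa2 lie at or above 2.04, and the intervals of Hadha and Hadhb cross 0.

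Ratios of 2 transcripts within a library do not depend on the scaling between libraries, and 7 such ratios of counts were compared by exact two-sided permutation tests with adjustment over the 7. Hadha and Hadhb were counted at 2.46, 2.70 and 2.19 to 1 in Pdk4fl/fl and at 2.55, 2.74 and 2.43 to 1 in Pdk4SMKO libraries, overlapping ranges (exact p = 0.5). Cpt1a to Cpt2 ran at 57.7, 35.1 and 41.2 against 10.7, 11.1 and 11.3. The shuttle pair was therefore closer in abundance in all 3 Pdk4SMKO libraries (exact p = 0.1, adjusted p = 0.14). Among the dehydrogenases, Acadm to Acadl was 0.248, 0.237 and 0.345 against 0.514, 0.691 and 0.634. Acadm to Acadvl was 0.255, 0.201 and 0.373 against 0.781, 0.958 and 1.00, and Acadl to Acadvl 1.03, 0.845 and 1.08 against 1.52, 1.39 and 1.58. In each of the 3 the shorter-chain enzyme had gained relative to the longer-chain enzyme in all Pdk4SMKO libraries, each at the smallest exact p of 0.1 (adjusted p = 0.14), which this design cannot take past 0.05. The 3 ratios are formed from 3 genes and so are not independent, and 2 of them rest on Acadvl, whose span overlaps that of Dvl2. The order did not extend to Acads, for short chains, named after its values were seen. Acads was 2.03-fold higher (22.9 against 46.6 CPM), beside 4.45-fold for Acadm. Etfdh to Etfa, the gene for the α subunit of its electron donor, was 0.607, 0.607 and 0.364 against 0.671, 0.668 and 0.633, separate by a small margin. For Acsl1 to Acsl4, another synthetase, the libraries overlapped at 0.526, 0.430 and 0.347 against 0.388, 0.803 and 0.599 (exact p = 0.3, adjusted p = 0.35).

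**Figure D3:**
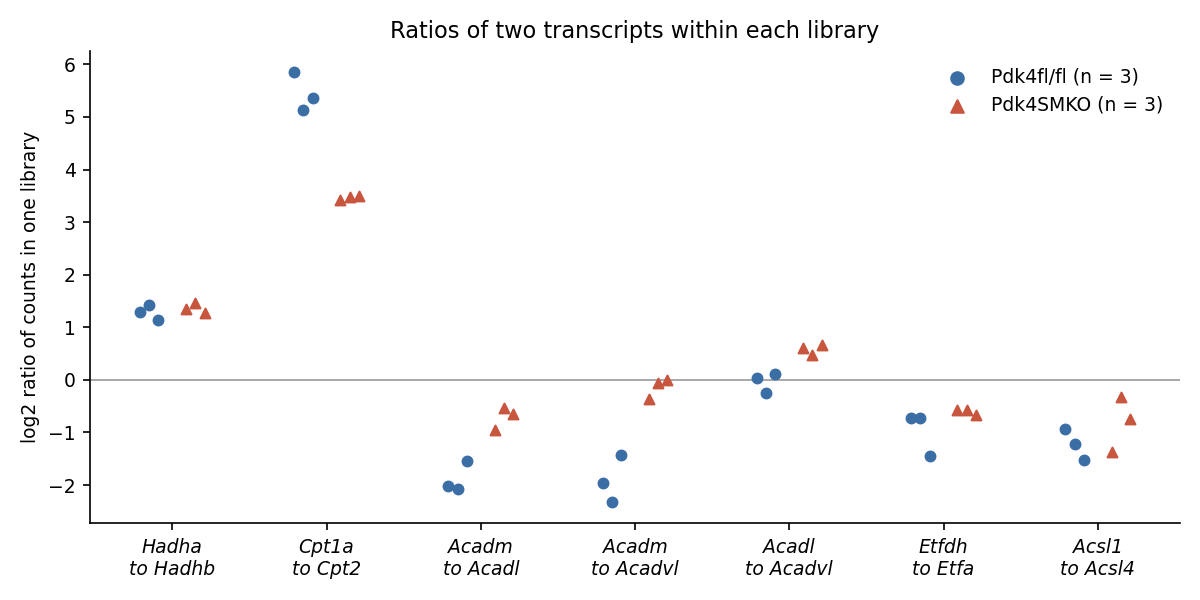
Log2 ratio of the counts of 2 genes in the same library, for 7 pairs. Circles are Pdk4fl/fl and triangles Pdk4SMKO libraries. The ratio of Cpt1a to Cpt2 is lower and the 3 dehydrogenase ratios are higher in every Pdk4SMKO library, and the ratio of Hadha to Hadhb overlaps.

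Divided by gene length, the levels can be compared between genes, and the order of the 10 differed between genotypes. In Pdk4fl/fl cells the highest levels in CPM per kilobase were those of Cpt1a (19.1 ± 2.16, SD, n = 3) and Acadl (19.1 ± 0.927), whose libraries overlapped, followed by Acadvl (14.7 ± 2.45) and Hadha (14.3 ± 0.113), which also overlapped. Acaa2 came next (11.1 ± 1.06), then Hadhb (7.79 ± 0.791), Etfdh (6.24 ± 0.383), Acsl1 (3.73 ± 0.695), Acadm (2.70 ± 0.435) and Cpt2 (0.801 ± 0.206), with overlap between Acsl1 and Acadm alone. The highest was 23.9-fold the lowest. In Pdk4SMKO cells Acaa2 stood first at 45.6 ± 1.51 CPM per kilobase, above Cpt1a (39.3 ± 1.32) and Acadl (38.3 ± 1.74), which overlapped. Acadvl (19.2 ± 0.605) and Hadha (15.9 ± 1.01) followed, then Acadm (12.0 ± 1.37), Acsl1 (8.85 ± 4.10) and Hadhb (8.19 ± 0.576), of which each overlapped the next. Cpt2 (6.40 ± 0.0479) and Etfdh (5.11 ± 0.289) were last and did not overlap. The span of levels had narrowed to 8.93-fold, with Cpt2 and Acadm, both near the bottom of the order in Pdk4fl/fl cells, among the genes that changed most. Lengths are those listed in the table for each gene and not those of the transcripts used in these cells.

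**Figure D4:**
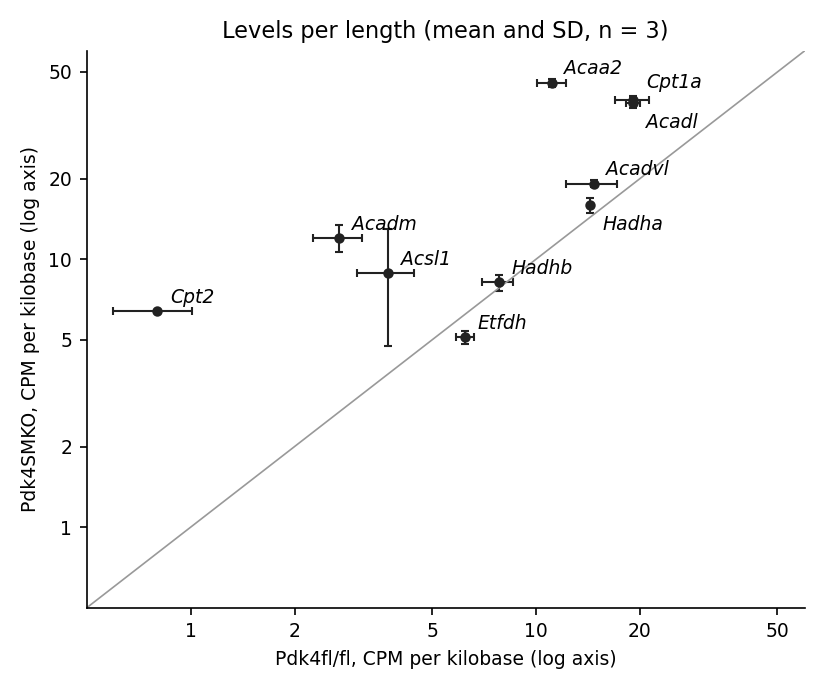
Level of each enzyme gene per kilobase of gene length in Pdk4fl/fl (horizontal) and Pdk4SMKO cells (vertical), as TMM-scaled CPM per kilobase on log axes, with SD over 3 libraries. The diagonal marks equal levels. Cpt2 (0.801 against 6.40) lies farthest above it, Hadha and Hadhb lie close to it, and Etfdh lies below it with TMM scaling, while its log2 fold change is 0.32 with library size alone.

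The genes around these enzymes were taken from 11 lists of fatty acid handling, with 91 genes found and 83 tested. Of the 83, 33 were higher and 20 lower at 2-fold, against 32.8% and 26.5% of all genes, which makes 39.8% and 24.1% of the list genes, and the median log2 fold change was 0.46 against 0.12 over all genes. The lists differed widely in their medians, from -2.24 for ketone body enzymes to 1.81 for peroxisomal β-oxidation. With library size alone, 13 in place of 20 were lower at 2-fold, and among the genes named here Slc27a3, Acsl3, Acsl5, Acot8, Hsd17b10 and Pparg came under 2-fold without a change of direction.

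Of 14 peroxisomal β-oxidation genes, all tested, 11 (78.6%) were higher and 2 (14.3%) were lower in Pdk4SMKO cells at 2-fold. Over all tested genes the shares were 32.8% and 26.5%. Among the 11 were Ehhadh, Acox2 and Abcd2, which had 5 counts or fewer in every Pdk4fl/fl library. They passed the filter through the Pdk4SMKO libraries and could be called in 1 direction alone. Peroxisomes shorten very long and branched chains before they pass to mitochondria. Amacr, the racemase for branched chains, was at 2.13 against 10.8 CPM (log2 fold change 2.35), and Hsd17b4, the bifunctional enzyme, at 24.4 against 105 CPM (2.11). Crot, which loads shortened chains onto carnitine, was at 21.8 against 86.0 CPM (1.98), and Acox3, the oxidase for branched chains, at 11.8 against 42.3 CPM (1.84). These 4 were thus between 3.58-fold and 5.05-fold higher. Of the 2 lower genes, the thioesterase Acot8, named after its values were seen, was at 21.5 against 9.11 CPM (log2 fold change -1.24). The summed level of the 14 genes moved little, from 577 to 618 CPM in Pdk4fl/fl to 628 to 699 CPM in Pdk4SMKO libraries.

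Among 15 other tested enzymes of the matrix, 6 were higher and 2 lower at 2-fold (40.0% and 13.3%), with a median log2 fold change of 0.30. Of all tested genes, 32.8% were higher and 26.5% lower. Acad11, a further acyl-CoA dehydrogenase placed in this list, was 9.87-fold higher (1.91 against 18.9 CPM), and the compartment of its enzyme was not examined here. Of the enzymes that handle propionyl-CoA from odd chains, Mmut, the methylmalonyl-CoA mutase, was at 6.89 against 45.0 CPM (log2 fold change 2.72) and Pccb, a propionyl-CoA carboxylase subunit, at 5.80 against 22.5 CPM (1.96). The epimerase Mcee between them, named after its values were seen, did not pass (6.44 against 6.07 CPM, log2 fold change -0.08). Decr1, the dienoyl-CoA reductase needed for unsaturated chains, was at 14.0 against 47.3 CPM (1.76). The lower genes, named after their values were seen, were Eci1, an enoyl-CoA isomerase (86.5 against 26.5 CPM, log2 fold change -1.71), and Hsd17b10, a short-chain hydroxyacyl-CoA dehydrogenase (89.8 against 38.9 CPM, -1.21). Genes for enzymes of unsaturated chains thus lay on both sides. Of the electron transfer flavoprotein, Etfa did not pass 2-fold (90.4 against 56.6 CPM, log2 fold change -0.67, adjusted p = 0.0041, edgeR's quasi-likelihood test). Etfb was higher from very low values, 0.842 against 2.87 CPM (log2 fold change 1.76), and its span lies within that of another listed gene on the same strand, so its counts are uncertain.

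Among the other Cpt1 and Acsl genes the direction was mixed. Cpt1c, the brain isoform, was higher (24.4 against 49.6 CPM, log2 fold change 1.02), while Cpt1b, the muscle isoform, was at 0 to 0.299 CPM in every library and was not tested. The span of Cpt1b shares 16001 bases with Chkb on the same strand, so its counts are uncertain. The call of Cpt1c was lost, at log2 fold changes of 0.94 to 1.00, with RLE factors, with protein-coding genes alone, and without Pdk4fl/fl replicate 1 or Pdk4SMKO replicate 1. Of the synthetases, Acsl3 (58.9 against 26.8 CPM, log2 fold change -1.14) and Acsl5 (176 against 87.4 CPM, -1.01) were lower at 2-fold, opposite to Acsl1. With upper-quartile factors both came under 2-fold (-0.93 and -0.80), and Acsl5 did so as well with no filter, with at least 10 counts in every library, and without Pdk4fl/fl replicate 3 or Pdk4SMKO replicate 2 or 3. Acsl4, which favours arachidonate, passed the adjusted p alone (81.5 against 136 CPM, log2 fold change 0.73), and Acsl6 was at 0.196 to 1.04 CPM and was not tested. Acsf3, a mitochondrial malonyl-CoA synthetase, was higher (6.24 against 20.6 CPM, log2 fold change 1.72). Of the 6 tested synthetases, 1 was higher and 2 were lower. Cpt1c was the 1 gene called among 4 tested in the carnitine list.

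Uptake and cytosolic binding genes gave 2 higher and 3 lower of 7 tested (28.6% and 42.9%), beside 32.8% and 26.5% of all tested genes. Fabp3, a cytosolic fatty acid binding protein, was 35-fold lower (84.4 against 2.41 CPM, log2 fold change -5.11). Slc27a1, a transporter of the plasma membrane, was 4.93-fold lower (52.1 against 10.6 CPM), Slc27a3 was 2.23-fold lower (5.05 against 2.27 CPM), and Slc27a4 was 3.82-fold higher (13 against 49.8 CPM). Members of 1 transporter family thus moved in opposite directions. Cd36, named after its values were seen, had 0 counts in every Pdk4fl/fl library and 3.64, 0.398 and 0.442 CPM in Pdk4SMKO libraries. It was not tested, and taking 3 counts per library as the floor it was at least 7.58-fold higher on average, through Pdk4SMKO library 1. Of 4 thioesterases, which release fatty acids from CoA, Acot1 was 36.8-fold higher (0.431 against 15.9 CPM), and Acot7 (163 against 43.2 CPM) and Acot13 (111 against 25.2 CPM) were 3.77-fold and 4.43-fold lower. Acot1 has a near-identical copy, Acot2, that was not found in the table by name, so its counts are uncertain.

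Regulators of the pathway gave 4 higher and 3 lower of 13 tested (30.8% and 23.1%), close to the 32.8% and 26.5% of all tested genes. Mlycd, the decarboxylase that removes malonyl-CoA, was 17.8-fold higher (0.931 against 16.6 CPM, log2 fold change 4.15, standard error 0.23). Acacb, the carboxylase that makes malonyl-CoA at the mitochondrion, was 6.88-fold lower (19.1 against 2.77 CPM, log2 fold change -2.78, standard error 0.33). Acacb and Mlycd thus moved in opposite directions, while Acsf3, which also forms malonyl-CoA, moved with Mlycd. Ppargc1a, a coactivator of oxidative genes, was 4.69-fold lower (8.67 against 1.85 CPM), and Prkaa2, a catalytic subunit of the AMP-activated kinase, was 2.77-fold higher (1.92 against 5.32 CPM). The remaining called genes, named after their values were seen, were the nuclear receptors Rxra (43.8 against 96.5 CPM) and Esrra (12.3 against 26.8 CPM), both higher, and Pparg (10.9 against 4.54 CPM), lower. Ppara, the receptor best known for fatty acid oxidation, was at 0.0549 to 0.832 CPM in Pdk4fl/fl and 0.736 to 1.29 CPM in Pdk4SMKO libraries and did not pass (adjusted p = 0.061, edgeR's quasi-likelihood test).

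Further targets of the PPAR receptors outside β-oxidation were 3 higher and 2 lower of 6 tested, 1 of the lower being Pdk4 itself. Angptl4, a secreted inhibitor of lipoprotein lipase, was 25.3-fold higher (1.48 against 37.5 CPM) and Vldlr, a lipoprotein receptor, 5.05-fold higher (10.9 against 55.3 CPM), whereas Plin2, which coats lipid droplets, was 4.64-fold lower (210 against 45.1 CPM). Lipid storage genes were likewise on both sides. Dgat1 (6.67 against 31.2 CPM) and Lpl (1.17 against 8.60 CPM) were higher, and Dgat2 (10.4 against 1.22 CPM) and the lipase Pnpla2 (164 against 33.8 CPM) were lower. Their list had 3 higher and 2 lower of 9 (33.3% and 22.2%), close to the shares of all tested genes. The 2 triglyceride-forming acyltransferases Dgat1 and Dgat2 therefore moved in opposite directions. Of 3 ketone body enzymes, 2 were lower at 2-fold, among them Oxct1, which starts the use of ketone bodies and was 4.71-fold lower (775 against 165 CPM).

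**Figure D5:**
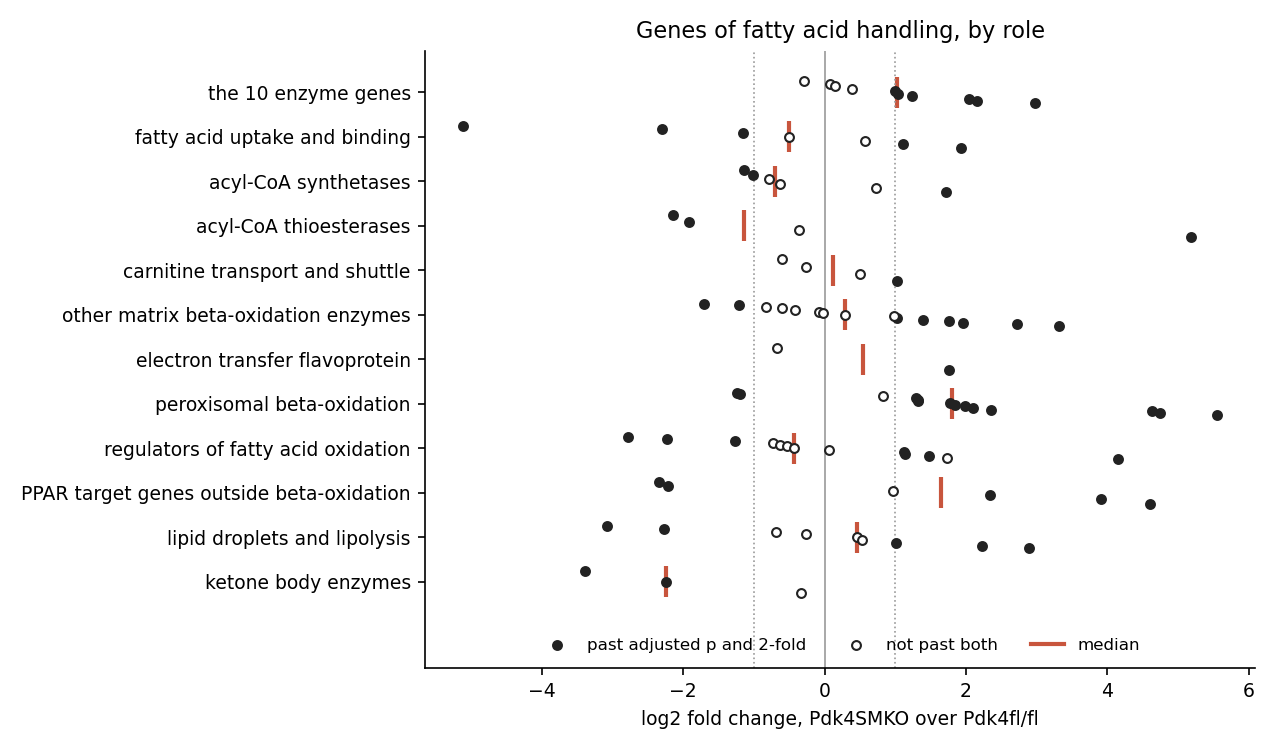
Log2 fold change of every tested gene in the lists of fatty acid handling, Pdk4SMKO over Pdk4fl/fl, with the 10 enzyme genes in the top line. Filled points passed the adjusted p and the 2-fold limit (dotted lines), and bars are list medians, which are highest for peroxisomal β-oxidation (1.81) and lowest for ketone body enzymes (-2.24).

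The protein-coding genes whose log2 CPM followed that of Cpt1a most closely over the 6 libraries were Ildr2 (Pearson r = 0.9997), Etnk1 (r = 0.9993) and Ston1 (r = 0.9990), among 12359 genes compared. As a description, 24.8% of these genes reached an r of 0.95 or more, since the 6 libraries fall into the 2 genotypes and any gene that separates them correlates with Cpt1a.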

How the data were processed

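RNA from Ang II-treated MASMCs of 3 Pdk4fl/fl and 3 Pdk4SMKO samples was sequenced as paired-end reads. The authors deposited raw counts, whole numbers of reads per gene for the 6 libraries. The submitters' processing notes name GRCm39, whereas all but 625 of the 41721 gene identifiers belong to Ensembl's C57BL/6NJ annotation, and the positions printed for genes are those of the table. The aligner, the counting program and the use of strand are not given in the sources used here. The labels and the study's methods name different library kits. Columns of per-sample values were all used.

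The labelled genotype set the groups. Counts were filtered with filterByExpr, scaled by TMM and tested with the quasi-likelihood test of edgeR 4.0.16 in R 4.3.3 on genotype alone, although the study's methods name DESeq2 (here 1.42.0, an alternative). P-values were adjusted by the Benjamini-Hochberg method over 14085 genes. Calls needed an adjusted p below 0.05 and a 2-fold change. Standard errors were derived from the fold change and its F statistic. Floors of 3 counts and intervals cover counting error or the spread of these libraries alone. The fits were tested first on simulated data in which few genes changed, as many up as down. Those data held no shift between genotypes like that of the TMM factors here, so they do not bear on the choice of scaling. Exact permutation tests were two-sided.

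Named genes were the 10 enzymes, Pdk4, up to 4 called genes of each list (those with the largest change and at least 5 CPM in the higher genotype where more than 4 passed), both flavoprotein subunits, the other Cpt1 and Acsl genes, genes of the ratios, defining markers and the 3 genes most like Cpt1a, on log2(CPM + 0.5). Other genes were chosen after their values were seen. Some genes of the lists are not reported here by name. The members and lists were chosen with earlier results of these data known. Of 93 listed genes 91 were found. Promoter windows came from a RefSeq table of GRCm38.p6 and were matched by symbol. Alternatives were other scalings, DESeq2, other filters, protein-coding genes alone, a fold limit of 1.5, 0.5 added to the counts of the ratios, the replicate number as a block and leaving out each library in turn.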

Additional observations from a re-analysis of the deposited data

How the results depend on the processing

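The number of enzyme genes higher at 2-fold ran from 3 to 6 with single libraries left out (3 without Pdk4fl/fl replicate 3). It was 5 with RLE factors, DESeq2, no filter and protein-coding genes alone. The number lower by the adjusted p alone, 1 for Etfdh, ran from 0 to 1 with single libraries left out. Etfdh passed without Pdk4fl/fl replicate 3. With any other library left out its adjusted p was 0.054 to 0.178 (edgeR's quasi-likelihood test). The number lower was also 0 with upper-quartile factors, library size alone, DESeq2, no filter, at least 10 counts in every library, and the replicate number as a block. Deviations from the genotype means correlated at 0.0396, 0.0604 and 0.176 for libraries with the same replicate number. For different numbers the correlations were -0.131 to 0.0533. With 3 libraries per genotype these values cannot settle whether the numbers pair the libraries. With the block the adjusted p of Etfdh was 0.0545 (edgeR's quasi-likelihood test). With library size alone the genes of the pathway lists called lower went from 20 to 13, and all called genes from 4614 higher and 3732 lower to 6183 higher and 2388 lower, so that 72.1% in place of 55.3% of the calls were higher. Etfdh reversed to 0.32 (adjusted p = 0.0458, edgeR) under that scaling, by the shift in all genes. The log2 difference of the ratio of Hadha to Hadhb reversed to -0.00457 (exact p = 1) without Pdk4fl/fl replicate 3 and ran up to 0.146 with others left out. Acadl came under 2-fold with RLE factors (0.97), DESeq2 (0.99), protein-coding genes alone (0.98), and without Pdk4fl/fl replicate 3 (0.95), Pdk4SMKO replicate 1 (0.99) or replicate 3 (0.9986). Acsl1 lost its call with no filter (adjusted p = 0.074, edgeR), without Pdk4fl/fl replicate 3 (0.081) and, by size, without Pdk4SMKO replicate 2. Where no cause is given, the cause was not tested. Cpt2, Acadm and Acaa2 were called under every alternative run. At 3 counts per library, genes under about 0.2 CPM could not be measured.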
